A study of Mus musculus with 6 samples.

Results

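SWI/SNF (BAF) chromatin remodelling subunits were followed in regulatory T cells (Treg) with and without inositol polyphosphate multikinase (IPMK). The members are 10 genes taken by symbol from the 23282 entries of each count file: Smarca4, Smarca2, Smarcb1, Smarcc1, Smarcc2, Smarcd1, Smarcd2, Smarce1, Arid1a and Arid2. All 10 were found once and all 10 passed the filter on low counts that left 10475 genes. Spleens of C57BL/6 mice were the source, Treg were purified by flow sorting, and the cells were left unstimulated. There were 3 wild type libraries and 3 libraries labelled IPMK cKO, a conditional knockout. The sources used here do not give the conditional allele, the Cre driver, the age of the mice or the number of animals behind a library. The titles call the libraries biological replicates, but nothing says that each came from its own animal, so p-values measure the spread between these libraries, which may be partly technical.

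SWI/SNF complexes use ATP to slide or evict nucleosomes and so open promoters and enhancers to transcription factors. Each complex is built around 1 ATPase, either BRG1 (Smarca4) or BRM (Smarca2). Apart from a non-canonical form with BRD9, it sits on a core of SMARCB1, SMARCC, SMARCD and SMARCE1 proteins. On that core an ARID protein marks the type of complex: ARID1A or ARID1B the canonical BAF form, ARID2 the PBAF form. In T cells these complexes are known for roles in lineage genes and in activation, and they act against Polycomb repressors. IPMK phosphorylates inositol phosphates and phosphoinositides, and it has been reported to bind core subunits, among them SMARCB1, BRG1 and SMARCC1. The comparison here addresses the transcript levels of these partners when Ipmk is lost, and it says nothing about protein or about binding.

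The promoters of the genes for these 3 reported partners are shown so that the sequences stand beside the levels. Each run is the 250 bases before the RefSeq start (GRCm38.p6, which is the mm10 assembly), written 5′ to 3′ on the strand of the gene. The positions are chr9:21615919-21616168 on the plus strand, chr9:110131774-110132023 on the plus strand and chr10:75921615-75921864 on the minus strand. The Smarcc1 window lies inside the gene's span in GENCODE M21 (110117708 to 110240178), so it precedes an internal start of that span. Capitals mark the core of the nuclear respiratory factor 1 (NRF1) motif, GCGCATGC, on either strand.
Smarca4: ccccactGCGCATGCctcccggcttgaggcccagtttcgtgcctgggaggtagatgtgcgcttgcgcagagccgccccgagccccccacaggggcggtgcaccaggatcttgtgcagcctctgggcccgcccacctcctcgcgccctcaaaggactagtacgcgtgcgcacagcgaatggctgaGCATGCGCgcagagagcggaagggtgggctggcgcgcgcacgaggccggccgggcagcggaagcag
Smarcc1: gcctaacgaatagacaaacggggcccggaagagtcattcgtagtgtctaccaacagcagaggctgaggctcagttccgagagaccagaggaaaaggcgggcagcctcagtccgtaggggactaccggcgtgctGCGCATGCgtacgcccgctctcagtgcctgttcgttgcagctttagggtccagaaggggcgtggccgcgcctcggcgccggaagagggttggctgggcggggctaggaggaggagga
Smarcb1: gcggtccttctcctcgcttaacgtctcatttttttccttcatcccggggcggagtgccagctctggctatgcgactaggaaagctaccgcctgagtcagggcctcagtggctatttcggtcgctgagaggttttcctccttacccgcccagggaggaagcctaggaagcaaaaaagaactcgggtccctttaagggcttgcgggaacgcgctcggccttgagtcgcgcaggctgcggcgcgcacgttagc

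Smarca4 held 2 such cores and Smarcc1 held 1, and this window of Smarcb1 held none. The other member windows held none either, so 2 of 9 windows held the core. The core was present in 2.26% of the 32851 promoter windows of the same length in RefSeq. Of the 10 members, 8 had a promoter in that table, with 9 windows because Arid1a has 2; Smarce1 and Arid2 did not match. The GC box, GGGCGG on either strand, was in 8 of the 9 member windows and in 32.7% of all windows. The ETS core, CCGGAAG on either strand, was in 2 of the 9 (Smarca2 and Smarcc1) and in 6.91% of all. The cyclic AMP response element, TGACGTCA, was in 0 of the 9 and 1.55% of all, and the E box, CACGTG, in 0 of the 9 and 6.02% of all. The member windows held a median of 25 CG dinucleotides and 68.4% G and C, against 6 and 52.4% over all windows. Smarcd2 had the fewest CG dinucleotides of the members, 4. Its window (chr11:106267633-106267882, minus strand) lies inside the gene's span in GENCODE M21 (106263179 to 106272972). It therefore precedes an internal start and is not the sequence in front of the whole gene. Of the 2 Arid1a windows, 1 (chr4:133753986-133754235, minus strand) also lies wholly inside its gene's span (133679008 to 133756769). That window held 33 CG dinucleotides and 81.6% G and C, and it is included in the counts and medians above. A match describes letters in a window and is not a bound site. The motifs were chosen after the member sequences were read.

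The libraries held 7464546 to 8980395 counts, of which 5287300 to 7130660 lay outside the ribosomal RNA precursor Rn45s. Counts of Ipmk were 129, 77 and 99 in wild type against 3, 21 and 0 for IPMK cKO replicates 1 to 3, so the targeted transcript was lower in each library labelled IPMK cKO (exact permutation p = 0.1, two-sided, the smallest that 3 against 3 libraries can give). Its log2 fold change was -3.51 (SE 1.75, edgeR unadjusted p = 0.0705, adjusted p = 0.9999). Even the targeted gene was thus not called, so a gene that is not called may still have changed. The sources used here do not say which part of Ipmk is deleted, and a 3′ tag outside it checks the labels only through transcript abundance. All 8 Treg markers had counts in each library, and their summed level was 2853 to 3652 CPM (counts scaled to a common library size) in wild type and 2727 to 3398 CPM in IPMK cKO. Foxp3 varied more than that sum, with 86, 590 and 279 counts in wild type against 605, 551 and 811 for IPMK cKO. Its lowest library was wild type replicate 1. The lists for B cells, CD8 T cells, natural killer cells, myeloid cells, neutrophils, plasma cells and erythroid cells each summed to at most 56.3 CPM, reached by erythroid genes in wild type replicate 2. Cd8a, Ncr1, Klrd1 and Adgre1 had no count in any library, and the groups overlapped for all 8 lists. The library of IPMK cKO replicate 1 stood apart. Of the 3000 most abundant genes, 55.0% differed there by more than 1.5-fold from their median in the remaining libraries, against 12.0% to 20.3% in each of the other 5. The fold change of each member is also given without it.

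None of the 10 subunit genes was called different between IPMK cKO and wild type. By edgeR's quasi-likelihood test 0 of the 10 passed an adjusted p of 0.05, where 0% of the 10475 genes tested passed, and the edgeR adjusted p was 0.9999 for each member. At an unadjusted p under 0.05 edgeR had 0 members against 2.56% of all genes. DESeq2 called 0 members and 3 of all genes (0.0286%), and at an unadjusted p under 0.05 it had 1 member, Smarca2, against 3.82% of all genes. Limma-voom called 0 members and 0% of all genes, and at an unadjusted p under 0.05 it had 0 members against 4.01% of all genes. The estimates were above 0 for 5 members and below 0 for 5, with a median log2 fold change of +0.10 beside +0.03 over all genes tested (-0.044 beside -0.17 with total counts as the scale). With 1 library left out the members' median was +0.093 (without IPMK cKO replicate 1) to +0.24 (without wild type replicate 2). In bulk RNA, fewer cells with a transcript and less of it per cell cannot be told apart.

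**Figure D1:**
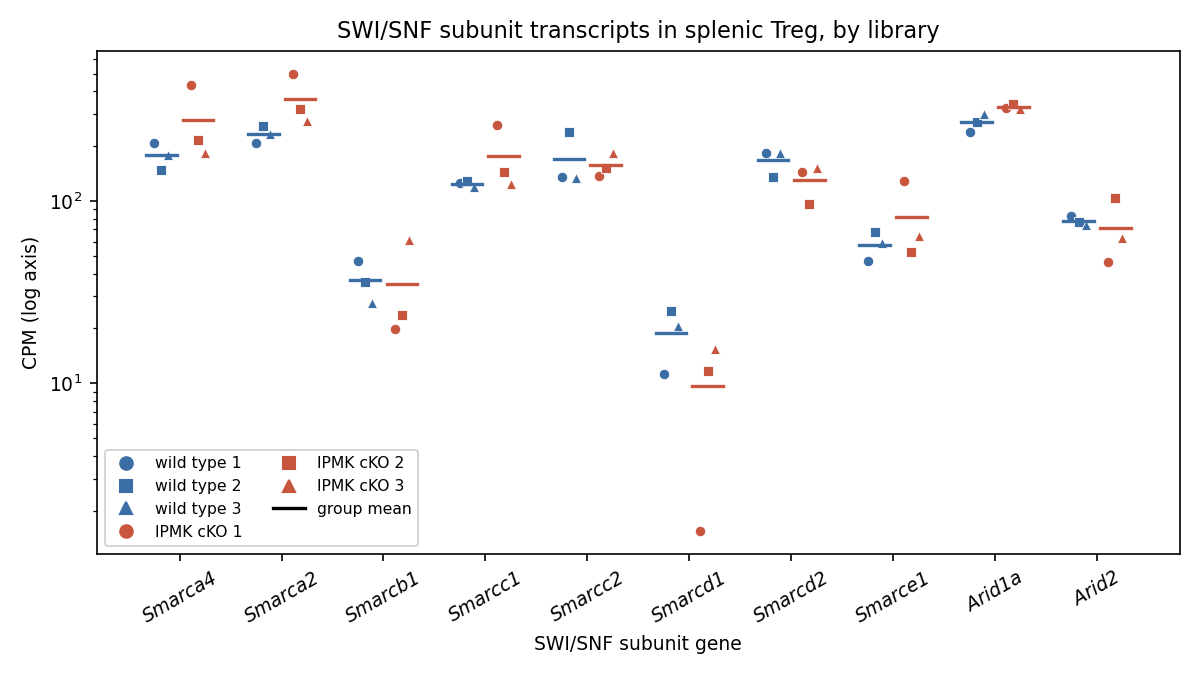
Levels of the 10 SWI/SNF subunit transcripts in CPM (log axis) in each wild type (blue) and IPMK cKO (red) library, with marker shape for the replicate and a bar for the group mean. Arid1a and Smarca2 are the only members whose groups do not overlap, and Smarcd1 in IPMK cKO replicate 1 is the lowest value, at 1.55 CPM.

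Levels are given in CPM on TMM-scaled library sizes. Tags in these libraries come from transcript 3′ ends, so a long transcript yields no more tags than a short one, and CPM were not divided by length when genes were set beside each other. On that scale the members ran from Smarcd1, above 33.8% of the genes tested, to Smarca2, above 96.3% of them. In wild type the order of mean levels was Arid1a (271 ± 30.7 CPM), Smarca2 (234 ± 26.3), Smarca4 (179 ± 30.6), Smarcc2 (170 ± 60.3), Smarcd2 (168 ± 27.9), Smarcc1 (125 ± 4.34), Arid2 (78.0 ± 4.61), Smarce1 (57.8 ± 10.6), Smarcb1 (36.9 ± 9.82) and Smarcd1 (19.0 ± 7.07; SD, n = 3 each). Among neighbours in that order, the ranges did not overlap between Smarcd2 and Smarcc1, Smarcc1 and Arid2, Arid2 and Smarce1, or Smarcb1 and Smarcd1. Ranges overlapped between neighbours among the 5 most abundant members. Smarcd1 ranked last of the 10 in all 6 libraries. Arid1a ranked first in 5 of the 6 and was behind Smarca2 and Smarca4 in IPMK cKO replicate 1.

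The ATPase genes had the highest estimates. Smarca2 (ENSMUSG00000024921, chromosome 19, 26605050 to 26778322, plus strand of mm10) encodes BRM. Its level was 208, 260 and 235 CPM in wild type replicates 1 to 3 against 501, 322 and 274 CPM for IPMK cKO replicates 1 to 3. Each IPMK cKO library lay above each wild type library, and the margin was narrow between wild type replicate 2 and IPMK cKO replicate 3. The log2 fold change was +0.64 (SE 0.30, 95% interval -0.02 to 1.31), with an edgeR unadjusted p of 0.0565 and DESeq2 unadjusted p of 0.0348. Without IPMK cKO replicate 1 the log2 fold change was +0.34 (SE 0.23), and the groups still did not overlap.

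Smarca4 (ENSMUSG00000032187, chromosome 9, 21616169 to 21704230, plus strand) encodes BRG1, a reported partner of IPMK. It was 210, 149 and 180 CPM in wild type against 434, 216 and 183 CPM for IPMK cKO. The replicate 1 library of IPMK cKO stood above all others. Replicate 2 lay just above the wild type range, at 216 CPM against at most 210 CPM, and replicate 3 fell inside that range, so the groups overlapped. Its log2 fold change was +0.63 (SE 0.36, 95% interval -0.16 to 1.42), and without IPMK cKO replicate 1 it was +0.15 (SE 0.25, 95% interval -0.41 to 0.70).

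The summed level of both ATPases was nearly constant in wild type, at 417, 409 and 415 CPM (414 ± 4.42, SD, n = 3), while the level of Smarca4 alone ranged from 149 to 210 CPM. In IPMK cKO the sum was 936, 538 and 457 CPM (643 ± 256, SD, n = 3), so each library lay above the wild type range. The ratio of group means was 1.56, and 1.20 without IPMK cKO replicate 1. This sum was formed after the values were seen and is given as a description with no test. Smarca2 took 49.7%, 63.6% and 56.7% of the ATPase tags in wild type (Wilson 95% intervals 48.1% to 51.4%, 61.9% to 65.3% and 55.1% to 58.2%). It took 53.6%, 59.8% and 60.0% in IPMK cKO (intervals 52.4% to 54.8%, 58.3% to 61.3% and 58.6% to 61.4%). These intervals describe counting error alone. They may be too narrow even for that, because PCR copies were not marked by molecular identifiers and may be counted as separate tags. The wild type libraries differed among themselves by more than these intervals, and the group means of 56.7% ± 6.95 and 57.8% ± 3.67 (SD, n = 3 each) did not differ beyond that spread (exact permutation p = 0.8, adjusted p = 0.8 over the 4 shares compared).

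**Figure D2:**
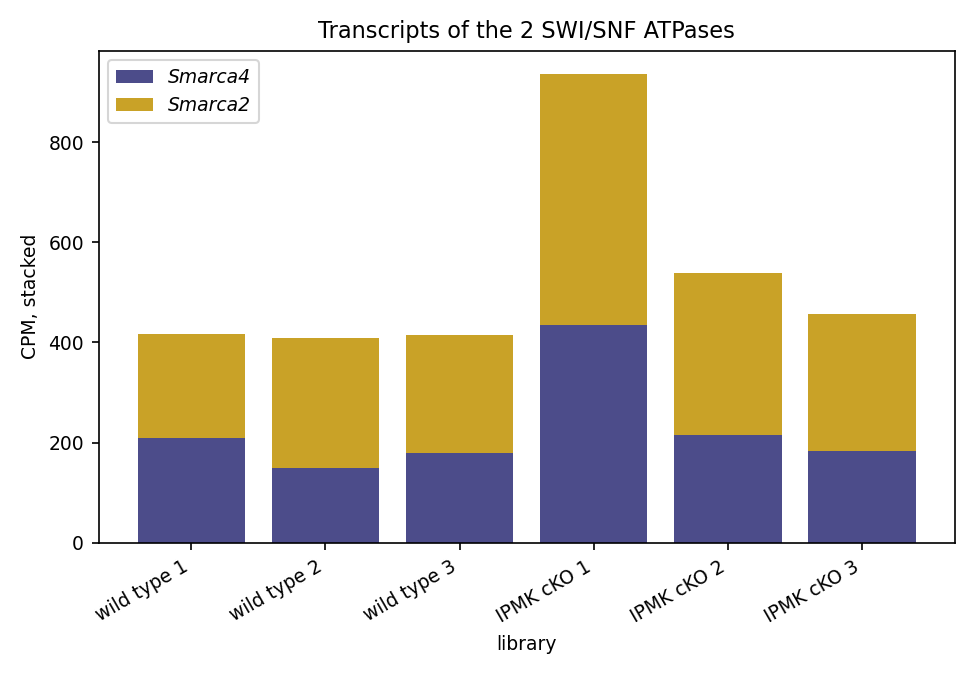
Stacked bars of Smarca4 and Smarca2 levels in CPM for each library. The stacks reach 409 to 417 CPM in the wild type libraries and 457 to 936 CPM in the IPMK cKO libraries.

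Among the core subunits, Smarcc1 had a profile like that of Smarca4. SMARCC1 (BAF155) and SMARCC2 (BAF170) are the paired scaffolds on which a complex assembles. Smarcc1 (ENSMUSG00000032481, chromosome 9, 110117708 to 110240178, plus strand) was 125, 129 and 120 CPM in wild type against 261, 144 and 124 CPM for IPMK cKO. The wild type values were close together (SD 4.34 CPM, n = 3), and IPMK cKO replicate 3 fell inside that range. With all libraries, the log2 fold change was +0.50 (SE 0.34, 95% interval -0.24 to 1.24), and +0.10 (SE 0.25) without IPMK cKO replicate 1.

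Smarcc2 (ENSMUSG00000025369, chromosome 10, 128459248 to 128490482, plus strand) was 136, 239 and 134 CPM in wild type against 137, 153 and 184 CPM for IPMK cKO. Wild type replicate 2 was the highest library, and the groups overlapped. The estimate was -0.10 on the log2 scale (SE 0.32, 95% interval -0.81 to 0.61), without wild type replicate 2 it was +0.22, and without IPMK cKO replicate 1 it was -0.014 (SE 0.31). Smarcc2 took 52.1%, 65.0% and 52.6% of the SMARCC tags in wild type against 34.5%, 51.6% and 59.7% for IPMK cKO. The lowest share was that of IPMK cKO replicate 1, and the group means were 56.6% ± 7.32 and 48.6% ± 12.9 (SD, n = 3 each; exact permutation p = 0.4, adjusted p = 0.667). Single libraries moved this difference, IPMK cKO minus wild type, from -8.00 percentage points to -0.95 without IPMK cKO replicate 1, to -3.78 without wild type replicate 2 and to -13.6 without IPMK cKO replicate 3.

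Smarcb1 (ENSMUSG00000000902, chromosome 10, 75896769 to 75921617, minus strand) encodes SMARCB1 (SNF5, BAF47), which contacts the nucleosome and is a reported partner of IPMK. It was 47.0, 36.1 and 27.5 CPM in wild type against 20.0, 23.6 and 61.5 CPM for IPMK cKO. The IPMK cKO group held both the lowest and the highest library. Its log2 fold change of -0.07 (SE 0.55) had a 95% interval of -1.28 to 1.14, which reaches past 2-fold in either direction. Its sign changed without IPMK cKO replicate 1 (+0.20), without IPMK cKO replicate 2 (+0.13) and without wild type replicate 1 (+0.14).

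SMARCD proteins link the core to transcription factors, and both of their genes had estimates below 0. Smarcd2 (ENSMUSG00000078619, chromosome 11, 106263179 to 106272972, minus strand) was 184, 136 and 184 CPM in wild type against 145, 96.2 and 152 CPM for IPMK cKO. Wild type replicate 2 lay below IPMK cKO replicates 1 and 3, so the groups overlapped. The log2 fold change was -0.36 (SE 0.31, 95% interval -1.04 to 0.32), and -0.44 (SE 0.29) without IPMK cKO replicate 1.

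Smarcd1 (ENSMUSG00000023018, chromosome 15, 99702129 to 99713991, plus strand) was 11.2, 25.0 and 20.7 CPM in wild type against 1.55, 11.8 and 15.5 CPM for IPMK cKO. These levels rest on 93, 183 and 199 counts in wild type against 11, 90 and 153 counts for IPMK cKO, the fewest of any member. Wild type replicate 1 was lower than IPMK cKO replicates 2 and 3. Its estimated log2 fold change was -0.98 (SE 0.93, 95% interval -3.03 to 1.08), and -0.48 (SE 0.69) without IPMK cKO replicate 1. Smarcd2 took 94.3%, 84.4% and 89.9% of the tags of both genes in wild type against 98.9%, 89.1% and 90.7% for IPMK cKO (exact permutation p = 0.5, adjusted p = 0.667), and was the main SMARCD transcript of these 2 in each library. The difference of +3.40 percentage points was +0.39 without IPMK cKO replicate 1, +0.85 without wild type replicate 2, +5.77 without wild type replicate 1 and +5.31 without IPMK cKO replicate 2. Smarcd3, the paralog known from muscle and heart, had 0.14 CPM in wild type replicate 2, 0.65 CPM in IPMK cKO replicate 2 and no count in the other 4 libraries.

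A ratio within a library needs no scaling between libraries. For each 100 ATPase tags there were 46.8, 39.3 and 49.3 SMARCD tags in wild type against 15.6, 20.1 and 36.7 for IPMK cKO. This was the one ratio of the 6 formed (SMARCD, SMARCC, Smarcb1, Smarce1, Arid1a and Arid2 tags to ATPase tags) whose groups did not overlap, with means of 45.1 ± 5.22 and 24.1 ± 11.1 (SD, n = 3 each). The divisor was itself higher in each IPMK cKO library, and all 6 ratios had a lower mean in IPMK cKO. The SMARCD sum alone overlapped between groups, at 195, 161 and 205 CPM in wild type against 146, 108 and 167 CPM for IPMK cKO. Without IPMK cKO replicate 1 the IPMK cKO mean ratio was 28.4, and the groups still did not overlap. Among single genes, groups did not overlap for 10.4% with all libraries and for 19.5% without that library. Smarcb1 gave 11.3, 8.83 and 6.62 tags for each 100 ATPase tags in wild type against 2.14, 4.40 and 13.5 for IPMK cKO. The ratios were formed after the values were seen and are a description.

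Smarce1 (ENSMUSG00000037935, chromosome 11, 99209047 to 99231017, minus strand) encodes BAF57, a DNA-binding core subunit. It was 46.8, 68.1 and 58.6 CPM in wild type against 129, 52.4 and 64.0 CPM for IPMK cKO. Replicate 1 of IPMK cKO was again the highest library, and the others overlapped. The log2 fold change was +0.50 (SE 0.42, 95% interval -0.41 to 1.41), and +0.01 (SE 0.34) without IPMK cKO replicate 1.

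Arid1a and Arid2 mark canonical BAF and PBAF, 2 of the forms of the complex measured here. Arid1a (ENSMUSG00000007880, chromosome 4, 133679008 to 133756769, minus strand) encodes the largest subunit of canonical BAF. It was 239, 273 and 301 CPM in wild type against 325, 340 and 321 CPM for IPMK cKO, so all IPMK cKO libraries lay above wild type. The log2 fold change was +0.28 (SE 0.25, 95% interval -0.28 to 0.84), and +0.28 (SE 0.22) without IPMK cKO replicate 1. It was the member with the smallest SE.

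Arid2 (ENSMUSG00000033237, chromosome 15, 96287518 to 96404992, plus strand) was 83.1, 76.5 and 74.3 CPM in wild type against 46.4, 104 and 62.5 CPM for IPMK cKO. The wild type libraries lay inside the range of the IPMK cKO libraries. Its log2 fold change was -0.13 (SE 0.38, 95% interval -0.96 to 0.70), and +0.09 without IPMK cKO replicate 1. Of the tags of both ARID genes, Arid2 took 25.8%, 21.9% and 19.8% in wild type against 12.5%, 23.4% and 16.3% for IPMK cKO. The groups overlapped (exact permutation p = 0.3, adjusted p = 0.667). The difference of -5.09 percentage points was -2.64 when the replicate 1 library of IPMK cKO was left out and -8.11 when replicate 2 was.

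**Figure D3:**
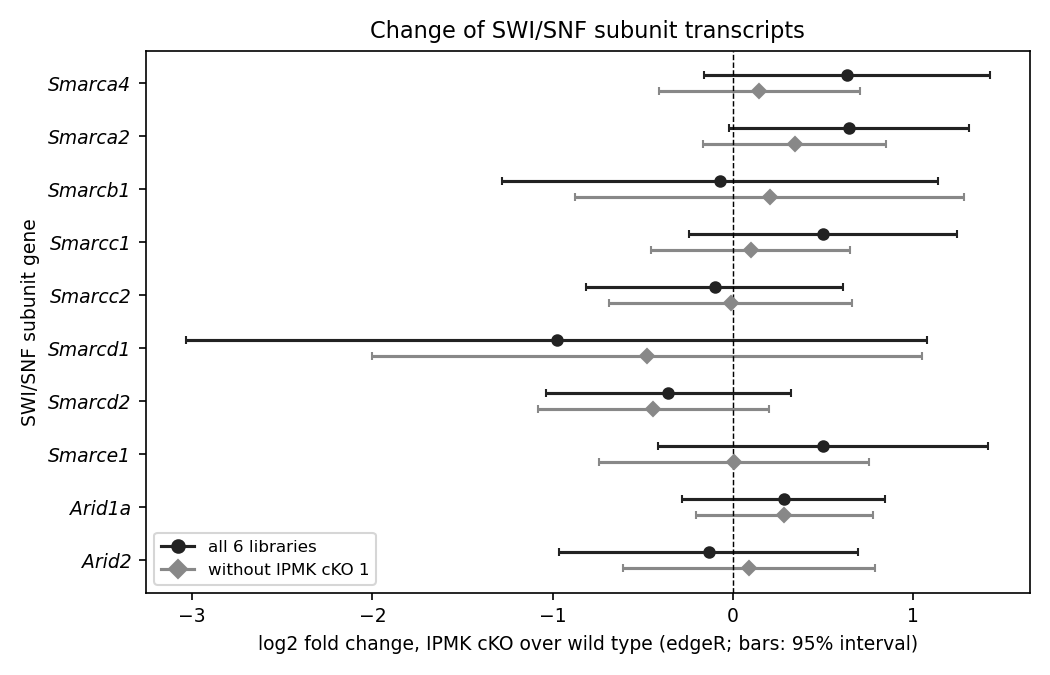
Log2 fold change of each SWI/SNF subunit transcript, IPMK cKO over wild type, with its 95% interval from edgeR, for all 6 libraries (black) and without IPMK cKO replicate 1 (grey). Every interval includes 0, and the estimates of Smarca4, Smarcc1 and Smarce1 move from +0.63, +0.50 and +0.50 to +0.15, +0.10 and +0.01.

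Of the 10 members, 2 had groups that did not overlap, Smarca2 and Arid1a, both higher in IPMK cKO, and 0 were lower throughout. Over all genes tested the groups did not overlap for 10.4%, with 4.74% higher and 5.66% lower. The count of members was 2 without IPMK cKO replicate 1 as well, where 19.5% of all genes did not overlap. It was 4 without wild type replicate 1 (Smarca4, Smarca2 and Arid1a higher, Smarcd1 lower), beside 17.6% of all genes. It was 5 without IPMK cKO replicate 3 (Smarca4, Smarca2, Smarcc1 and Arid1a higher, Smarcb1 lower), beside 22.7%. It was 3 without wild type replicate 2, beside 20%, and 3 without IPMK cKO replicate 2, beside 24.4%. With upper-quartile factors or total counts as the scale, Arid1a overlapped and Smarca2 alone remained, beside 10.3% of all genes under either scale. The 95% intervals excluded a 2-fold change in both directions for 3 members, Smarcc2, Arid1a and Arid2. For the others a change of that size in at least 1 direction was not excluded.

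The members varied most in IPMK cKO replicate 1, and not in 1 direction. There, 7 of the 10 differed by more than 1.5-fold from their median over the remaining 5 libraries, beside 55.0% of the 3000 most abundant genes, and in each other library 1 or 2 did. Smarca4, Smarcc1, Smarce1 and Smarca2 were above that median by 1.25, 1.05, 1.14 and 0.95 on the log2 scale. Smarcd1 was at -3.33, Smarcb1 at -0.85 and Arid2 at -0.72. Arid1a, Smarcc2 and Smarcd2 were close to it, at 0.11, -0.16 and -0.07. Subunits of the same core thus lay on opposite sides in this library. The coefficient of variation was larger in IPMK cKO than in wild type for 8 of the 10 members and for 69.1% of all genes tested.

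**Figure D4:**
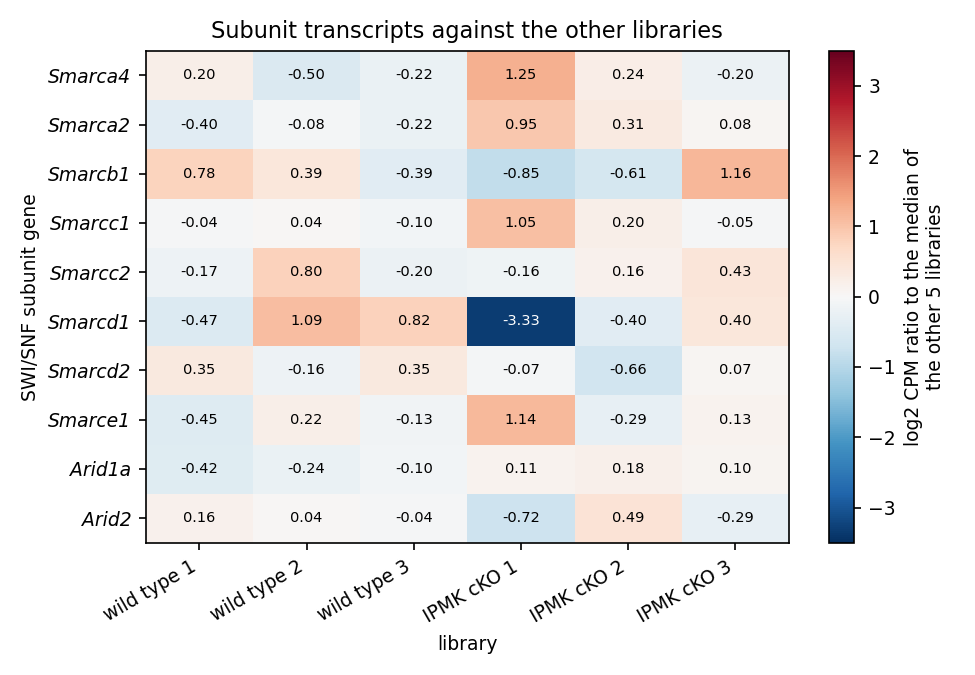
Heat map of the log2 ratio of each subunit's CPM to its median in the other 5 libraries, by library (columns) and gene (rows), with the value in each cell. IPMK cKO replicate 1 holds the largest departures, from -3.33 for Smarcd1 to 1.25 for Smarca4.

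The tags of a member can be mixed with those of a neighbour or copy. In GENCODE M21, Smarcc1, Smarcd1 and Smarca2 had an exon of an opposite-strand gene within the last 500 bases of a coding transcript (Dhx30, Gm34939 and 4931403E22Rik), and Arid2 had one on the same strand (Gm25397). Counting was not stated to use strand, so these genes cannot be told apart there. The share of 50-base stretches in those last 500 bases that also occur in transcripts of another gene was at most 5.24%, in Smarcd1. No such stretch was shared between members, paralogs included.

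The other known SWI/SNF subunits, 21 genes, were measured in the same fit and 16 passed the filter. By edgeR 0 rose, 0 fell and 16 did not pass, where 0% of all genes were called, and 0 had an unadjusted p under 0.05. DESeq2 and limma-voom called 0 as well, also with 0 at an unadjusted p under 0.05. Estimates were above 0 for 11 and below 0 for 5, with a median log2 fold change of +0.13 (-0.017 with total counts as the scale). That median was +0.015 without IPMK cKO replicate 3 and +0.33 without wild type replicate 2. Brd9, Actl6a, Bcl7b and Actb had the smallest p-values. Brd9, the bromodomain subunit of the non-canonical form, was 38.9, 95.5 and 126 CPM in wild type against 208, 108 and 125 CPM for IPMK cKO (log2 fold change +0.76, SE 0.44, and +0.42 without IPMK cKO replicate 1). The groups overlapped, with wild type replicate 1 as the lowest library. Actl6a, an actin-related subunit, was 56.2, 55.2 and 56.3 CPM in wild type against 43.6, 37.9 and 24.1 CPM for IPMK cKO (-0.67, SE 0.41, and -0.86 without IPMK cKO replicate 1). Bcl7b was 47.6, 44.8 and 39.7 CPM in wild type against 29.8, 30.8 and 20.8 CPM for IPMK cKO (-0.70, SE 0.45, and -0.78 without IPMK cKO replicate 1). For Actl6a and Bcl7b the groups did not overlap, 2 of the 16 beside 10.4% of all genes. Actb, the actin that is both a subunit and a cytoskeletal protein, was 10639 ± 539 CPM in wild type against 13884 ± 6481 CPM for IPMK cKO (SD, n = 3 each), with 21348 CPM in IPMK cKO replicate 1. Its log2 fold change was +0.38, and -0.07 without that library.

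The subunits that separate the forms of the complex were all present in wild type Treg. For PBAF, Pbrm1 was 273 ± 50.4 CPM, Brd7 81.8 ± 6.67 and Phf10 13.0 ± 1.58 (SD, n = 3 each). For canonical BAF, Arid1b was 109 ± 24.0 CPM and Dpf2 39.0 ± 7.51 (SD, n = 3 each). For the non-canonical form, Gltscr1l was 75.9 ± 11.7 CPM and Gltscr1 16.7 ± 4.71, beside Brd9 at 86.7 ± 44.1 (SD, n = 3 each). In IPMK cKO the levels were 263 ± 58.3 CPM for Pbrm1, 103 ± 45.1 for Brd7, 20.5 ± 19.1 for Phf10, 127 ± 15.8 for Arid1b, 44.0 ± 33.4 for Dpf2, 78.2 ± 10.3 for Gltscr1l and 17.5 ± 5.17 for Gltscr1 (SD, n = 3 each). Bcl11b, a T cell transcription factor that joins the complex, was the most abundant subunit after Actb, at 1125 ± 64.1 CPM in wild type against 1197 ± 35.0 CPM for IPMK cKO (SD, n = 3 each). Ss18 was 162 ± 43.4 and 123 ± 45.8 CPM, and its paralog Ss18l1 6.67 ± 3.82 and 9.67 ± 7.95 CPM. Bcl7a was 10.7 ± 5.43 and 19.5 ± 10.7 CPM, and Bcl7c 5.84 ± 5.15 and 4.78 ± 3.08 CPM, wild type first. The subunits known from neurons and other lineages, Actl6b, Dpf1, Dpf3 and Bcl11a, had no count in any library, which allows up to 0.304 to 0.422 CPM in a library (3 counts, counting error only).

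Remodeller ATPases outside SWI/SNF and Polycomb group genes were set beside the members. Of the 16 other ATPases 15 were tested, with 12 estimates above 0, 3 below and a median of +0.31 (+0.15 with total counts). It was +0.18 without IPMK cKO replicate 1, and with 1 library left out it ran from +0.10 (without wild type replicate 3) to +0.43 (without wild type replicate 2). By edgeR 0 were called, and 1 had an unadjusted p under 0.05, where 2.56% of all genes did, as with DESeq2 and limma-voom, which also called 0. Chd4, Chd9, Chd3 and Chd6 had the smallest p-values, all of the chromodomain family. Chd4, the ATPase of the NuRD complex, was 406, 526 and 439 CPM in wild type against 1246, 581 and 554 CPM for IPMK cKO (log2 fold change +0.80, SE 0.34, and +0.31, SE 0.21, without IPMK cKO replicate 1). It was the one gene of the list whose groups did not overlap, 1 of 15 beside 10.4% of all genes. Chd9, Chd3 and Chd6 were at +0.62 (SE 0.36), +0.50 (SE 0.37) and +0.39 (SE 0.29), and without IPMK cKO replicate 1 at +0.25, +0.031 and +0.35. Smarca1 had no count in any library. Of the 26 Polycomb group genes 24 were tested, with 10 estimates above 0, 14 below and a median of -0.26 (-0.44 with total counts). With 1 library left out the median ran from -0.32 (without wild type replicate 2) to -0.12 (without wild type replicate 1). By edgeR 0 were called and 1 had an unadjusted p under 0.05, beside 2.56% of all genes. This was Aebp2, at 143, 197 and 110 CPM in wild type against 44.6, 119 and 48.8 CPM for IPMK cKO (-1.08, SE 0.43). DESeq2 and limma-voom called 0, with 1 and 2 at an unadjusted p under 0.05. Bmi1, a subunit of Polycomb repressive complex 1, was at -1.05 (SE 0.53), Rbbp7 at -0.77 (SE 0.50) and Phc2 at -1.13 (SE 0.74). Without IPMK cKO replicate 1, Aebp2 was at -0.85, Bmi1 at -1.32, Rbbp7 at -0.42 and Phc2 at -0.60. Phf19 had a level of 4.65 CPM in wild type replicate 2 and no count in the other 5 libraries. Groups that did not overlap were found for Bmi1 and Ring1, both lower, 2 of 24 beside 10.4% of all genes in either direction and 5.66% lower. The differences between these lists and the members were not tested.

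**Figure D5:**
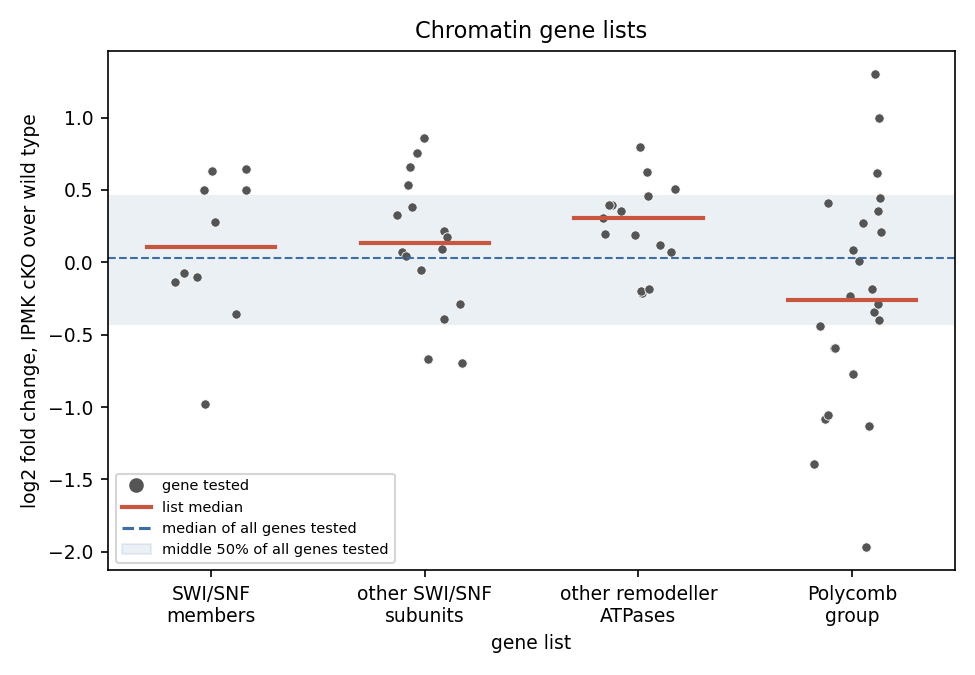
Log2 fold changes, IPMK cKO over wild type, of the tested genes of 4 chromatin lists (points), with the list median (red bar) and the median and middle 50% of all genes tested (blue line and band). The medians are +0.10 for the SWI/SNF members, +0.13 for the other subunits, +0.31 for the other remodeller ATPases and -0.26 for the Polycomb group on the TMM scale; with total counts they are -0.044, -0.017, +0.15 and -0.44.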

How the data were processed

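RNA from sorted splenic Treg was extracted with Trizol, and 500 ng per library went into the Lexogen QuantSeq kit, which reads 3′ tags, per the labels' protocols. Each deposited file lists counts per gene symbol, not normalized, per the file headers and the whole-number values. Per the submitters' processing notes, Bowtie2 and edgeR were used and mm10 and hg19 appear as builds, without roles or versions; the counter, annotation and strand setting were not given in the sources used here. Depth was 7464546 to 8980395 counts per library, and 11 to 3562 for a member. Symbols that occur more than once (35, in 79 entries) were kept apart; no member was among them. No 2 libraries of a group agreed within sampling noise (chi-square over genes with at least 10 counts in the pair).

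The test was edgeR's (version 4.0.16, R 4.3.3): filterByExpr with a minimum count of 10, TMM, glmQLFit and glmQLFTest, Benjamini-Hochberg adjustment over the 10475 genes tested and a threshold of 0.05. The SE is the estimate over the square root of F, and 95% intervals use the model's degrees of freedom. Shares of tags were compared by exact permutation, two-sided. DESeq2 1.42.0, limma 3.58.1 (voom), other scalings and filters, a replicate block and leaving out each library were alternatives. Positions and transcripts came from GENCODE M21 (mm10) and promoters from RefSeq (GRCm38.p6).

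The members and lists were chosen with earlier results of these data known, so no list was tested. Named genes were all members, Ipmk, all other SWI/SNF subunits, and in each further list the 4 with the smallest p and those with no count in a whole group; Ring1 and the sums and ratios of members were chosen after their values were seen.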

Additional observations from a re-analysis of the deposited data

How the results depend on the processing

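The count of members called was 0 in all 16 alternatives, and those of the other SWI/SNF, remodeller and Polycomb lists were 0 in all 16 too. All genes called went from 0 with edgeR to 3 with DESeq2, and over the fits that leave out 1 library from 0 to 1 (1 without IPMK cKO replicate 1). The median log2 fold change of the members, +0.10, was +0.059 with upper-quartile factors and -0.044 with total counts, where the median of all genes moved from +0.03 to -0.17; with 1 library left out it was +0.093 to +0.24. The count of members whose groups do not overlap was 1 with upper-quartile factors, 1 with total counts (10.3% of all genes in each) and 2 to 5 with 1 library left out (5 without IPMK cKO replicate 3, where 22.7% of all genes did not overlap). With 1 library left out the log2 fold change ran from -0.54 to +0.089 for Arid2, from -0.76 to +0.20 for Smarcb1 and from -0.25 to +0.22 for Smarcc2. Signs changed for Arid2 without IPMK cKO replicate 1, Smarcb1 without wild type replicate 1 (+0.14), IPMK cKO replicate 1 (+0.20) or IPMK cKO replicate 2 (+0.13), and Smarcc2 without wild type replicate 2. The difference in the Smarca2 share of ATPase tags (IPMK cKO minus wild type, +1.13 percentage points) was -2.35 to +4.60 with 1 library left out, negative without wild type replicate 1. The other 7 members kept their sign in all 15 alternatives that refit them, and no alternative gave any member an adjusted p below 0.776.

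Correlations of deviations from the group means over genes were 0.0454, 0.0877 and 0.0265 for same-numbered libraries, all under 0.1, and -0.0609 to -0.00106 for the others. The numbers were not taken to pair the libraries in the main test. Each library nevertheless correlated best with its own number, a hint from the data and not the design. With the replicate block 0 genes and 0 members were called, and the members' median was +0.11. Smarcd1 rests on the fewest counts, 11 in IPMK cKO replicate 1.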
